A study of Mus musculus with 12 samples.

Results

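Accessible chromatin was compared between mouse leukaemia cells carrying the fusion MLL-AF9 (MA9) and wild-type bone marrow (Control). Both groups were FACS-sorted CD45.2+ bone marrow cells from C57BL/6 mice, with 150000 cells per sample and 3 libraries each, so that these were 6 of the 12 libraries in the series. The genotype of the MA9 libraries was given as MLL-AF9 and that of the Control libraries as CD45.2(+) alone. The labels gave no age, did not say how the fusion was brought into the cells or into which host they were placed, and named no gate for Control cells beyond CD45.2. They did not say whether replicates came from separate animals or cultures, so a p-value here measures only the spread between these samples. The lists hold no reads across the fusion junction, so carriage of MLL-AF9 was not checked here. The assay was ATAC-seq, which reads open DNA by where a transposase can place adapters, and the deposited values were 1 list of peaks per library on the mouse build GRCm38 (mm10). Peaks on chromosomes 1 to 19 of the 6 lists were merged wherever they overlapped by 1 bp or more, which gave 43787 regions. A region is called gained where all 3 MA9 lists and no Control list had a peak, lost where all 3 Control lists and no MA9 list had one, and shared where all 6 had one.

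MLL-AF9 fuses the amino-terminal part of KMT2A (MLL), which methylates histones, with MLLT3 (AF9), a reader of acylated histones that brings in elongation complexes and the H3K79 methyltransferase DOT1L. The fusion is known to keep genes of the HoxA cluster and the Hox cofactor Meis1 active, which blocks maturation of myeloid progenitors and gives acute myeloid leukaemia. Wild-type marrow is a mixture in which maturing neutrophils, B cells and nucleated red cell precursors are abundant. In such bulk samples, fewer cells of a type and less open chromatin per cell cannot be told apart.

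Of the 43787 regions, 9253 (21.1%) were gained, 5317 (12.1%) were lost and 16389 (37.4%) were shared. The gained regions held 14 of the 19 regions of the HoxA cluster and the promoters of the granule protease genes Elane, Prtn3 and Ctsg and of the peroxidase gene Mpo. The lost regions held promoters of the globins, of red cell membrane genes, of B cell genes such as Pax5, Pou2af1 and Cd79a, and of late neutrophil genes such as S100a9, Ltf and Cxcr2. Promoters of housekeeping genes were shared.

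Promoter sequences from RefSeq (GRCm38.p6, 250 bases before to 50 after the start of each transcript) were matched to the regions. The promoters below were chosen because a gained or lost region covers at least part of each one and because each holds a motif whose share of promoters is given with the results. The first 4 lay in gained regions, and capitals mark GAGGAAG, a core bound by ETS factors such as PU.1. Hoxa9 (chr6:52227321-52227620, minus strand), a homeobox gene activated by MLL fusions; Mpo (chr11:87793534-87793833, plus strand), which encodes myeloperoxidase; Elane (chr10:79886062-79886361, plus strand), neutrophil elastase; and Ctsg (chr14:56102525-56102824, minus strand), cathepsin G, were:
Hoxa9: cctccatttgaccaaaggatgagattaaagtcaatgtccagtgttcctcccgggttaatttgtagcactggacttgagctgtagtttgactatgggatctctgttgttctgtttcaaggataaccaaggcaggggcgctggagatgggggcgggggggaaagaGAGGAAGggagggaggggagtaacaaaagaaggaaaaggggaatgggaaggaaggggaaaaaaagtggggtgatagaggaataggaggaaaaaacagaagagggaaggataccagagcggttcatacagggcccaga
Mpo: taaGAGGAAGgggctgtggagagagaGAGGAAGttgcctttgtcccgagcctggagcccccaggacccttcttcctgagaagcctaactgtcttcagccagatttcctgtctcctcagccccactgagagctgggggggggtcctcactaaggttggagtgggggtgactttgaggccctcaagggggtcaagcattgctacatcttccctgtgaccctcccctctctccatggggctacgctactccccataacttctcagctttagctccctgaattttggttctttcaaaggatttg
Elane: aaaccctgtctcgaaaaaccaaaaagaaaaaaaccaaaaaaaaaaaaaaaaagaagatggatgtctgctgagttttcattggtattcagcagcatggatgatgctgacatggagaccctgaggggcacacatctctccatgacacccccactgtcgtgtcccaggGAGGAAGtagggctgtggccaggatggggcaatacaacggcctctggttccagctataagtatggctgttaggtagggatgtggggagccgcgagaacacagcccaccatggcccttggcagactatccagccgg
Ctsg: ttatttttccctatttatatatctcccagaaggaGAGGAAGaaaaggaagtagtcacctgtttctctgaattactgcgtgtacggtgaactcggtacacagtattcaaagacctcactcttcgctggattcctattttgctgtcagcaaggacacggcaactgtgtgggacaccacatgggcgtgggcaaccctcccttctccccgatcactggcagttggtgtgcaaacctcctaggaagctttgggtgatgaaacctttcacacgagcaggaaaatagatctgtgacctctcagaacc

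The next 3 lay in lost regions. Capitals mark TTGCNNAA, a C/EBP-type motif, in S100a9 (chr3:90695672-90695971, minus strand), which encodes a subunit of calprotectin. In Epb42 (chr2:121036828-121037127, minus strand), the red cell membrane protein 4.2, and Hemgn (chr4:46404134-46404433, minus strand), hemogen, they mark AGATAA, the motif of GATA factors, read on either strand:
S100a9: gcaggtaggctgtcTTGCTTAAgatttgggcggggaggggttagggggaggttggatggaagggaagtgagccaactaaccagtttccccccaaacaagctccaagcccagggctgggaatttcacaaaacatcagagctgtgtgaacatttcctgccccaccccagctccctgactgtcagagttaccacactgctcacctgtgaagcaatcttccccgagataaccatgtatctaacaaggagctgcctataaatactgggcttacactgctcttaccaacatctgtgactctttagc
Epb42: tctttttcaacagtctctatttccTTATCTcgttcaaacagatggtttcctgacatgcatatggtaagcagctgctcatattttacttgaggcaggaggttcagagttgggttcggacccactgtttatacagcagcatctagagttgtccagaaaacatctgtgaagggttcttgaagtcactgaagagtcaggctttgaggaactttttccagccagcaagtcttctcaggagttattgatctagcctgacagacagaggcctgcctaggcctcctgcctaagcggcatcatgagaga
Hemgn: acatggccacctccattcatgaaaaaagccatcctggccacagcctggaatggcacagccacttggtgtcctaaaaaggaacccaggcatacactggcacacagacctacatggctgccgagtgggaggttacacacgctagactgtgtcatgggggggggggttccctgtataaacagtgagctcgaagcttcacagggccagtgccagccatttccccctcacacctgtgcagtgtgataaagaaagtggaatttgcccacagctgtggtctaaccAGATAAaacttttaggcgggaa

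The MA9 lists were longer than the Control lists. MA9 libraries had 33588, 31968 and 32288 peaks, against 27509, 25541 and 28023 peaks in Control libraries. Every MA9 list was longer than every Control list, and this held for covered length too, which was 16.1, 14.3 and 14.6 Mb in MA9 and 13.1, 12.1 and 13.4 Mb in Control. Peaks within 1 kb of a protein-coding gene end made up 31.3 ± 0.595% of the MA9 lists and 36.0 ± 1.05% of the Control lists (mean ± SD, n = 3 each). The median peak was 329 ± 10.8 bp wide in MA9 and 364 ± 0.577 bp in Control (SD, n = 3 each). For each of the 6 measures taken per library the groups did not overlap, and a two-sided exact permutation test gave p = 0.1, the smallest that 3 libraries against 3 allow, and 0.1 after adjustment over the 6. Since 3 against 3 cannot go lower, no region or gene was tested on its own. The lists carry no read numbers, so depth is unknown and a region that was not called is not shown to be closed.

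With lists of equal length, gained and lost regions were nearly equal in number. Among the 25541 strongest peaks of each list, 6053 regions (16.6%) were gained and 6079 (16.7%) were lost of 36475. In short lists, which kept the strongest peaks of each list up to the length of the shortest of the series' 12 lists, 732 (16.7%) were gained and 710 (16.2%) were lost of 4396. The share of peaks at gene ends turned round in the short lists, being 74.3% in MA9 and 69.5% in Control. Gains and losses there were mostly of rank: 690 of the 732 gained regions (94.3%) had a weaker peak in all 3 full Control lists, and 666 of the 710 lost ones (93.8%) in all 3 full MA9 lists. In the full lists 30 (4.10%) of these gained regions had no Control peak and 34 (4.79%) of these lost ones had no MA9 peak.

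**Figure D1:**
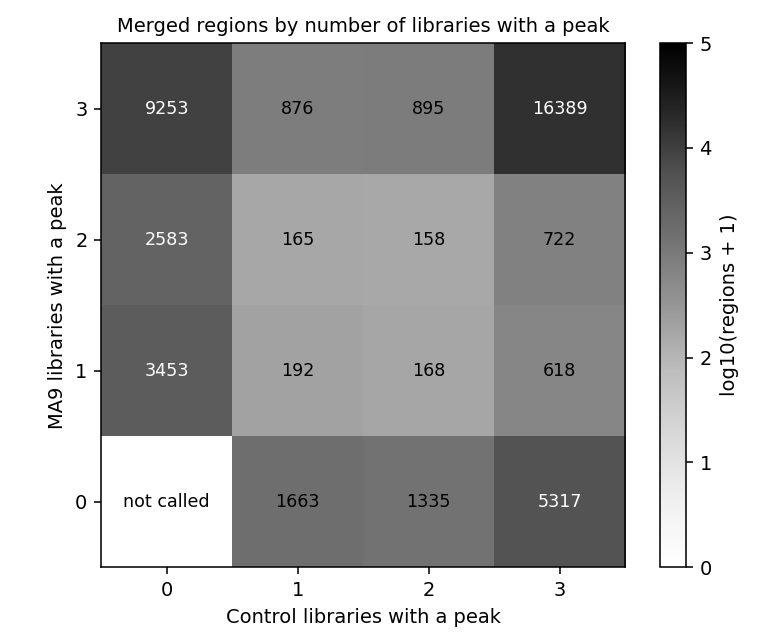
Number of merged regions by how many MA9 libraries (vertical axis, 0 to 3) and how many Control libraries (horizontal axis, 0 to 3) had a peak; shading is log10(regions + 1). Most regions sit in the corners: 9253 in all 3 MA9 and no Control library, 5317 in all 3 Control and no MA9 library, and 16389 in all 6.

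Presence in the other group varied with peak strength. Strength is given here as the percentile of a peak's signal within its own list, from 0 for the weakest to 100 for the strongest. Of the regions called in all 3 MA9 libraries, 68.3% had no Control peak in the weakest decile and 1.24% in the strongest decile, which was 34 regions. Of those called in all 3 Control libraries, 45.9% had no MA9 peak in the weakest decile and 1.13% in the strongest, which was 26 regions. Gained regions were narrow and lay away from gene ends, with a median width of 312 bp and a median distance of 14.1 kb to the nearest gene end. Lost regions were alike, at 349 bp and 11.6 kb, whereas shared regions were 684 bp wide and 1.47 kb away. Only 12.1% of gained and 13.01% of lost regions lay within 1 kb of a gene end, against 47.3% of shared regions. Most lay inside genes even so: 55.1% of gained, 61.7% of lost and 74.5% of shared regions overlapped a gene body.

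**Figure D2:**
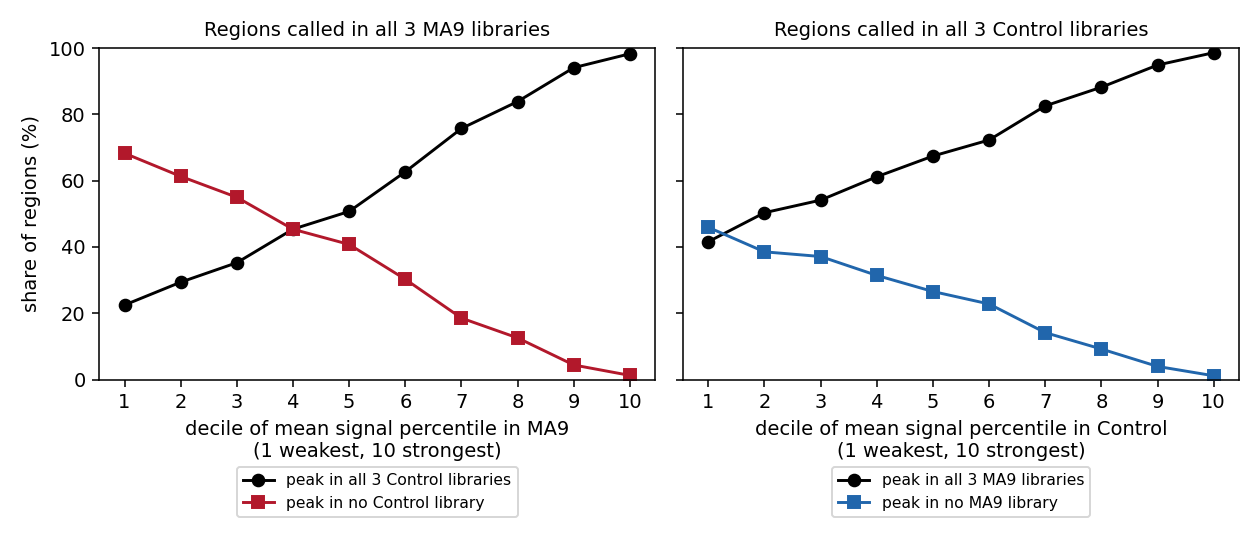
Share of regions (vertical axis, %) by decile of mean signal percentile (horizontal axis, 1 weakest to 10 strongest), for regions called in all 3 MA9 libraries (left) and in all 3 Control libraries (right). Black circles are regions also called in all 3 libraries of the other group and coloured squares are regions called in none of them; the coloured share runs from 68.3% to 1.24% on the left and from 45.9% to 1.13% on the right.

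The libraries of the related fusion MLL-ENL (ME), whose lists were shorter, give a second reading of the same regions. Of the 9253 gained regions 352 (3.80%) had a peak in all 3 ME libraries, and of the 5317 lost regions 1 (0.0188%) did, against 7016 (42.8%) of the shared regions. In the strongest decile of MA9 regions, 67.6% of those with no Control peak were called in all 3 ME libraries, as were 98.7% of the shared ones. In the strongest decile of Control regions, none of those without an MA9 peak were called in all 3 ME libraries, while 89.1% of the shared ones were.

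The HoxA cluster, whose 11 homeobox genes set position along the body axis in embryos and are silenced as blood cells mature, held the largest run of gained regions. Over the cluster on chromosome 6 the MA9 libraries had 18, 20 and 20 peaks, against 2, 1 and 1 in Control libraries. The difference of 18 peaks was larger than the spread within either group, and the exact permutation p was 0.1, the smallest possible. Of the 19 regions whose nearest gene end belonged to the list, 14 (73.7%) were gained and none were lost. The shares of all regions were 21.1% and 12.1%. By gene, 6 of the 7 Hoxa genes with a region had a gained one, where 39.6% of all 13435 genes with a region did. The Hoxa genes are neighbours, so their regions are not independent of each other. Within 12.5 kb of each other, 13 gained regions formed a single run from 52211256 to 52246746 on chromosome 6, which had the most regions of 100 runs of 4 or more gained regions.

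Hoxa9 had the strongest of these. Its region at chr6:52225190-52227502, which covers the promoter printed above in part, stood at signal percentiles of 97.5, 97.0 and 90.6 in the MA9 libraries and had no Control peak. GAGGAAG was found in the Hoxa9 promoter and in none of the other 3 gained Hoxa promoters. The peaks of MA9 replicates 1, 2 and 3 ended 0.132, 0.004 and 0.014 kb upstream of the Hoxa9 start site. Only the peak of replicate 1 reached the GAGGAAG marked above, which lies in the region because peaks were merged. A neighbouring Hoxa9 region at chr6:52221166-52222731 was the one place in the cluster with a peak in all 6 libraries. In lists of equal length (25541 peaks) it ranked at percentiles of 97.1, 96.8 and 96.1 in MA9 and 30.8, 7.79 and 4.70 in Control, so the groups did not overlap. Such separation was common: of 14692 shared regions 38.6% ranked higher in MA9 without overlap and 37.8% ranked lower. Hoxa10, which is also required for progenitor growth, had 4 gained regions, the strongest at chr6:52229577-52231186 with percentiles of 92.9, 85.2 and 92.0 in MA9. Hoxa7 at chr6:52216821-52218060 stood at 92.2, 91.6 and 90.6 and Hoxa3 at chr6:52212561-52213972 at 92.1, 92.3 and 92.6, all high in every MA9 library. Hoxa11 had 2 weaker gained regions, with percentiles of at most 71.2, and Hoxa4 had 1 at percentiles of 52.4, 37.5 and 40.3. Of the 11 genes, 4 were nearest to no region. The other Hox clusters were almost without peaks: 5 of 20 genes had a region, and 3 of those, Hoxc6, Hoxc10 and Hoxd11, had a gained one at a mean percentile of 39.7 or less.

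**Figure D3:**
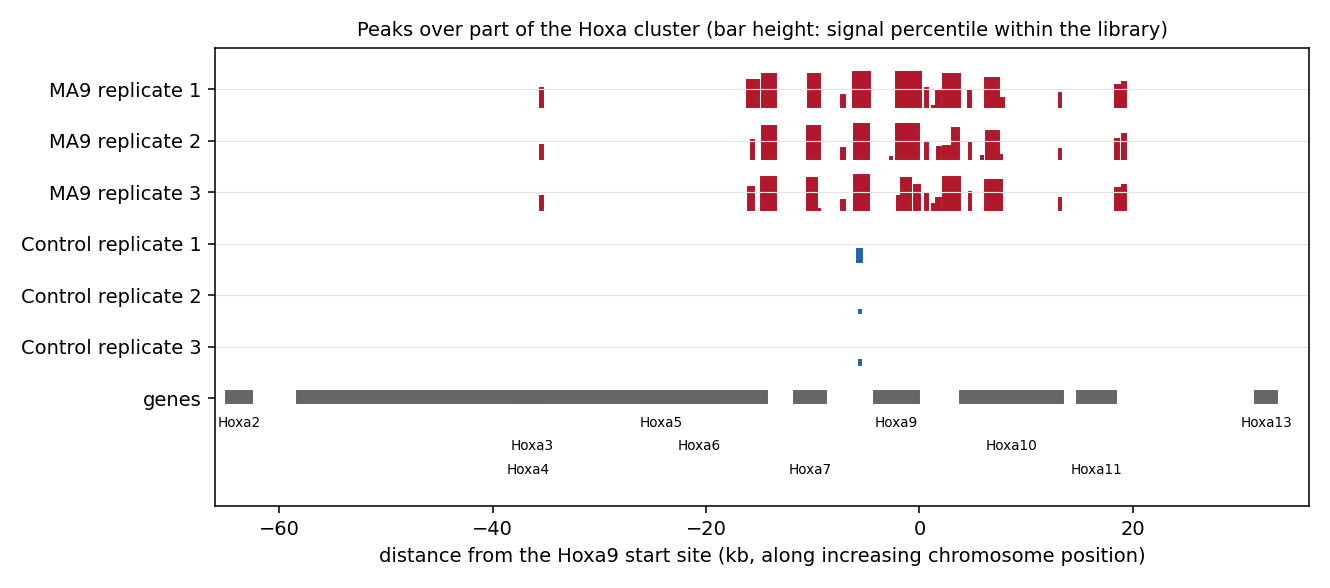
Peaks over the greater part of the Hoxa cluster in each library, by distance from the Hoxa9 start site (horizontal axis, kb), with MA9 replicates above Control replicates; bar height is the signal percentile within the library and grey bars are genes. The MA9 peaks cluster around Hoxa7, Hoxa9 and Hoxa10, and each Control library has 1 peak in the part drawn, beside Hoxa9.

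Genes that MLL fusions bind or need, and cofactors of Hox proteins, had both gained and lost regions. Of 18 genes with a region, 15 had a gained and 8 a lost region, against 39.6% and 23.2% of all genes, and 28.2% of their 170 regions were gained and 15.3% lost, against 21.1% and 12.1% of all regions. These genes have more regions each than most, a median of 8.5 against 2 over all genes, and a gene with more regions has more that can be called. Eya1, a phosphatase and transcriptional coactivator of embryonic tissues, had a gained region 0.641 kb from its end at 77.5, 74.2 and 72.1. No Control library had a peak within 1 kb of its ends.

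Meis1, the Hox cofactor, had peaks in both groups, but more in MA9: 10, 8 and 11 over the gene with 50 kb on each side, against 2, 2 and 2 in Control. Its region at chr11:19018359-19019218, beside one gene end, was shared and ranked at 85.3, 84.4 and 82.2 in MA9 against 54.2, 57.9 and 59.5 in Control at equal list length. Another 2 regions within 1 kb of that end were gained, and Meis1 had 6 gained regions and no lost one. Myb, a factor that progenitors need, had its strongest gained region at chr10:21146130-21147650, 13.3 kb from its end, with percentiles of 89.0, 84.9 and 87.4 in MA9. Cdk6, the kinase that drives progenitors into S phase, had 10 gained and 2 lost regions among 29, and the shared region 0.089 kb from its end ranked at 99.1, 99.4 and 99.4 in MA9 and 84.3, 58.5 and 52.8 in Control. Losses in this list were led by Mef2c with 9 lost regions of 20 and Lmo2 with 7 of 16, both factors that B cells or red cell precursors also use.

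Myc, which encodes a growth-promoting transcription factor, had gained and lost regions in different places. In the gene with 2 Mb on either side, MA9 libraries had 19, 20 and 18 peaks and Control libraries 11, 8 and 11. Of the 30 regions there, 11 were gained and 2 lost, where 21.1% of all regions were gained and 12.1% lost. The region at chr15:63704537-63705149, 1714 kb past the end of Myc, stood at percentiles of 88.3, 87.7 and 87.3 within the MA9 lists. Control libraries also had a peak there, at 20.2, 0.00392 and 41.2 within lists of other lengths. A gained region 1668 kb from Myc had percentiles of 65.8, 61.9 and 57.7 in MA9. By contrast, a region 179 kb past Myc, chr15:62169204-62170174, stood at 85.2, 81.5 and 86.7 in Control and had no MA9 peak. Myc's own end was shared by all 6 libraries, at 71.8, 76.4 and 77.3 in MA9 and 66.8, 66.4 and 29.1 in Control at equal list length. Enhancers of Myc in blood cells are known from this part of mouse chromosome 15. Which of these regions act on Myc was not measured.

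Genes of stem and progenitor cells had a gained region in 13 of 18 cases and a lost one in 8, against 39.6% and 23.2% of all genes, with a median of 5 regions per gene against 2. Of their 133 regions 33.8% were gained and 17.3% lost, against 21.1% and 12.1% of all regions. Of their 22 shared regions, 6 ranked higher and 13 lower in MA9 without overlap at equal list length. Kit, the stem cell factor receptor, had no Control peak within 50 kb and 2 in every MA9 library. Those at its end were among the weakest of the lists, with percentiles of 5.22, 8.03 and 20.4 for the one that covers its promoter, while a gained region 73.8 kb from the gene stood at 88.8, 85.7 and 86.6. Gata2, a stem cell factor that mast cells keep, had a gained region 27.5 kb away at 75.7, 76.1 and 72.9. Angpt1, which encodes a ligand of the receptor Tek, had 6 regions and all were gained, the strongest at 69.3, 70.2 and 67.7. Erg, a stem cell ETS factor, showed both directions with 7 gained and 5 lost regions of 23. Gene-end peaks were found for 13, 12 and 11 of the 20 genes in MA9 and for 9, 7 and 8 in Control.

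Primary granule genes, which promyelocytes switch on and later cells switch off, had a gained region in 9 of 13 cases and a lost one in 5, against 39.6% and 23.2% of all genes. Of their 61 regions 31.1% were gained and 13.1% lost, against 21.1% and 12.1% of all regions. The promoters of Mpo, Elane, Prtn3, Ctsg and Ms4a3 lay in gained regions, 5 of the 12 in the list with a promoter sequence, where 425 of 16457 genes did, and 2.48% of all 20085 promoters were gained. Mpo at chr11:87793309-87794213 stood at 76.3, 70.2 and 72.0 in MA9. Elane at chr10:79886028-79886422 stood at 56.6, 64.0 and 59.5, and Ctsg at chr14:56102353-56103111 at 76.7, 79.9 and 77.5. Mpo, Elane and Ctsg had 3 gained regions each, and no Control peak in any region nearest to them. The strongest for Ctsg was chr14:56104933-56106136, 2.36 kb from its end, at 95.1, 94.8 and 94.4. The Prtn3 promoter itself was weak, at 2.17, 0.732 and 9.67, but a shared region 1.09 kb from the gene ranked at 95.3, 95.5 and 95.7 in MA9 and at 37.0, 48.7 and 42.9 in Control at equal list length. The remaining members differed: Ctsc, a protease that activates granule serine proteases, had 3 lost regions of 6 and no gained one, with gene-end peaks in all 6 libraries. Calr and Hk3, which other cells use, had gene-end peaks in all 6 libraries, and Serpinb1a had them in the 3 Control libraries and in no MA9 library. Of 19 shared regions of the list, 5 ranked higher and 10 lower in MA9 without overlap at equal list length. GAGGAAG was found in 4 of the 5 gained promoters of the list (Ctsg, Elane, Mpo and Prtn3). It was found in 14.9% of all gained promoters, 13.2% of shared ones and 13.2% of all promoters. Elane and Prtn3 are related in sequence and lie side by side on chromosome 10.

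Neutrophil maturation genes showed the reverse. A lost region was found for 13 of 18 genes and a gained one for 2, against 23.2% and 39.6% of all genes. Of their 69 regions 39.1% were lost, against 12.1% of all regions. The median was 3.5 regions per gene against 2 over all genes. S100a9 had the strongest lost gene-end region of all, chr3:90691227-90696108, 4882 bp wide, with percentiles of 99.96, 99.97 and 99.97 in Control and no MA9 peak. S100a8, which encodes the partner subunit of calprotectin, kept a peak in every library, but at percentiles of 32.0, 29.3 and 38.6 in MA9 against 99.9 in each Control library at equal list length. Ngp, a secondary granule protein, was alike, at 21.9, 8.95 and 28.6 in MA9 and 99.9, 99.9 and 99.7 in Control. Both groups stood wholly apart in these 2 regions. Retnlg (98.1, 98.3 and 99.2 in Control), the chemokine receptor gene Cxcr2 (94.4, 92.4 and 93.6) and Ltf, which encodes lactoferrin (86.5, 90.3 and 91.5), had strong Control regions with no MA9 peak. The collagenase gene Mmp8 did not follow them: both its regions were shared, and its gene-end region ranked at 53.9, 56.4 and 59.0 in MA9 and 62.4, 60.1 and 60.9 in Control. Gene-end peaks were found for 8 of the 20 genes in each MA9 library and for 15 in each Control library. TTGCNNAA was found in 3 of the 5 lost promoters of the list (Ltf, Retnlg and S100a9) and in 3 of the 7 lost B cell promoters. It was found in 10.96% of all lost promoters, 5.62% of gained ones, 7.86% of shared ones and 10.3% of all promoters. Promoters that no region overlapped held it in 12.4%.

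Lineage factors of the granulocyte and monocyte branch were open in both groups. Gene-end peaks were found for 14, 15 and 15 of 17 such genes in MA9 and for 15 in each Control library. Of 55 shared regions of these genes, 22 ranked higher and 22 lower in MA9 without overlap at equal list length. Cebpa, the factor that starts granulocyte differentiation, was shared at its gene at chr7:35118040-35119981 and ranked at 97.3, 97.6 and 96.6 in MA9 and 63.8, 66.8 and 63.5 in Control at equal list length. Cebpb had 5 gained and 2 lost regions of 24. A gained one 19.5 kb away, chr2:167709907-167711171, stood at 94.2, 94.0 and 94.4, and all 3 ME libraries also held it. At equal list length the shared region at Cebpb itself differed in mean percentile, MA9 minus Control, by 48.7 without overlap. Its other shared regions differed by -55.5, -48.3, -22.5, -14.5, -6.44, -5.87 and -5.22 without overlap, and by -1.79 and 6.96 with overlap. Spi1, which encodes PU.1, had 2 lost regions of 9 and no gained one. At equal list length its shared regions differed in mean percentile, MA9 minus Control, by -52.3, -33.6, -17.3 and -2.49, without overlap. Those of Cebpe differed by -48.5, -20.99 and -8.22, the last with overlap. Irf8, which directs progenitors to monocytes and dendritic cells, had 3 gained and 4 lost regions of 14. The strongest of the lost ones, 10.5 kb from the gene at chr8:120724881-120725869, stood at 83.6, 82.7 and 83.7 in Control. Monocyte and macrophage genes had a gained region in 11 of 18 cases and a lost one in 2, against 39.6% and 23.2% of all genes. They had a median of 4.5 regions per gene against 2 over all genes. Their share of gained regions, 20.4%, was close to the 21.1% of all regions. Gene-end peaks were found for 11, 11 and 12 of the 20 monocyte and macrophage genes in MA9 and for 9, 8 and 9 in Control.

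B cell genes were lost almost throughout. A lost region was found for 18 of 21 genes and a gained one for 2, against 23.2% and 39.6% of all genes. Of their 106 regions 64 (60.4%) were lost, against 12.1% of all regions. The median was 4 regions per gene against 2 over all genes. Gene-end peaks were found for 6, 5 and 5 of 22 genes in MA9 libraries and for 17 in each Control library. Ebf1, the factor that commits progenitors to the B lineage, had 12, 11 and 11 peaks over the gene with 50 kb on each side in Control and none in any MA9 library. Pax5, which holds that commitment, had 6 lost regions of 9, the strongest in Control at chr4:44671008-44671851 with percentiles of 82.8, 83.8 and 84.6. Cd79b, which encodes a signalling chain of the B cell receptor, had 4 regions and all were lost. Of Cd79a, the other chain, the promoter region chr7:24897193-24897710 at 82.1, 80.0 and 80.8 in Control was lost. A wider region over the other part of Cd79a was shared, at 87.6, 89.7 and 88.7 in MA9 and 99.7, 99.1 and 99.5 in Control at equal list length. Pou2af1, a B cell coactivator, stood at 92.9, 92.8 and 93.6 in Control with no MA9 peak. Igll1, a surrogate light chain gene, went against the list, with gene-end peaks in all 3 MA9 libraries and in no Control library. Bach2 had the most lost regions of these genes, 14 of 23, and 4 gained ones.

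Erythroid genes had the largest share of lost regions of the 23 lists. A lost region was found for 21 of 22 genes and a gained one for 4, against 23.2% and 39.6% of all genes. Of their 90 regions 56 (62.2%) were lost, against 12.1% of all regions. The median was 3 regions per gene against 2 over all genes. Of the promoters, 12 of 16 in the list lay in lost regions, where 243 of 16457 genes and 1.5% of all promoters did. Globin genes have nearly identical copies (Hba-a1 and Hba-a2, Hbb-bs and Hbb-bt), so that reads could be split between copies. Over the alpha-globin cluster with 50 kb on each side, MA9 libraries had 4, 5 and 5 peaks and Control libraries 15, 14 and 13. Hba-a1 at chr11:32283248-32286165 stood at 99.1, 98.1 and 98.9 in Control. The lost regions also formed a run of 6 from 32238524 to 32269293 nearest to Mpg and Nprl3, where the alpha-globin enhancers are known to lie, the strongest of them at chr11:32250758-32251446 at 80.1, 77.2 and 79.6 in Control. At the beta-globin cluster MA9 libraries had 0, 0 and 1 peak and Control libraries 7, 7 and 7. Epb42 (72.2, 71.9 and 70.8 in Control), Hemgn (76.2, 69.7 and 77.2) and the anion exchanger gene Slc4a1 (92.8, 94.1 and 92.7 at its strongest) had no MA9 peak at those regions. Klf1, an erythroid factor, was mixed: its promoter region was lost, at 49.5, 38.8 and 50.8 in Control, while a shared region 0.707 kb away ranked at 86.4, 85.2 and 85.6 in MA9 and 66.0, 65.9 and 61.9 in Control. Gfi1b, which early progenitors also use, had 4 lost regions and 1 gained one, 2.71 kb from its end, at 83.0, 80.9 and 86.1 in MA9. AGATAA was found in 6 of the 12 lost erythroid promoters and in 2 of the 5 lost neutrophil maturation promoters. It was found in 13.6% of all lost promoters, 3.82% of gained ones, 5.03% of shared ones and 9.57% of all promoters. Promoters that no region overlapped held it in 13.3%.

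**Figure D4:**
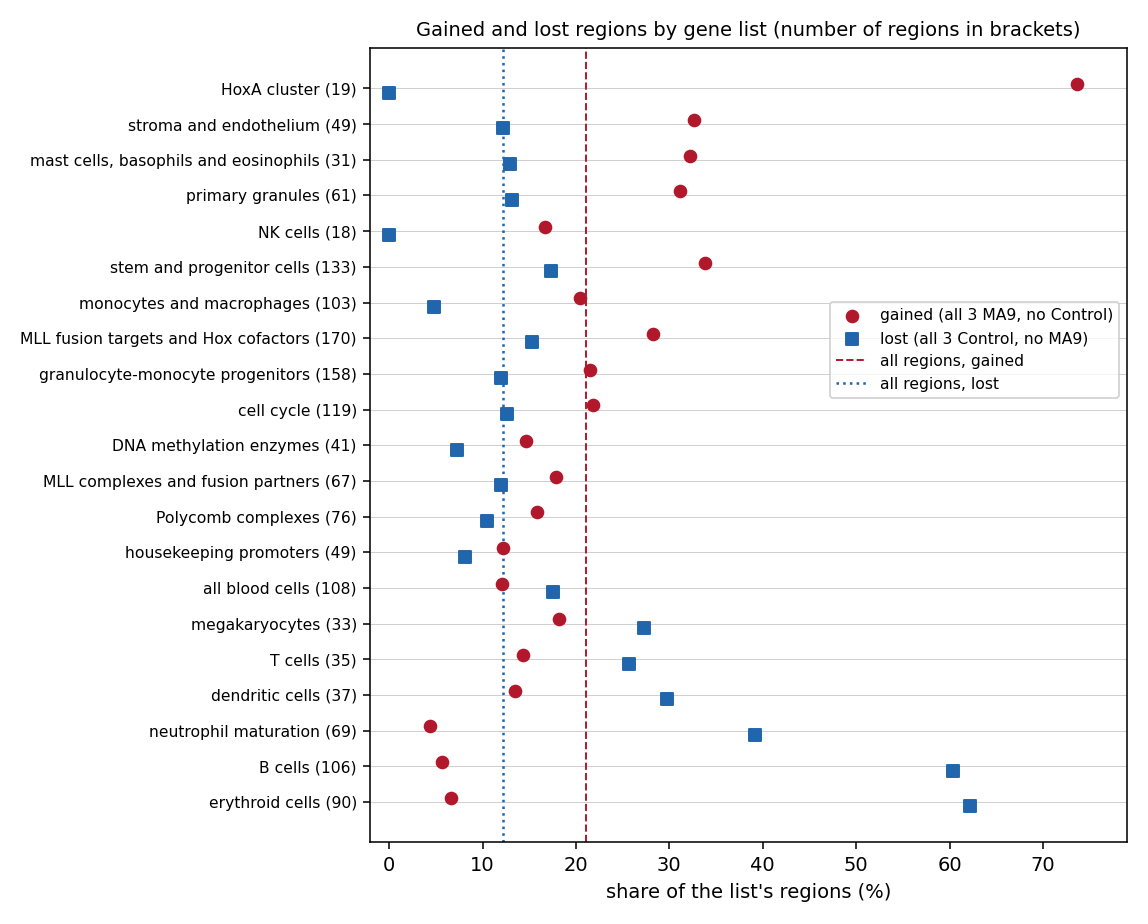
Share of each list's regions (horizontal axis, %) that were gained (circles) or lost (squares), with the number of regions in brackets; dashed and dotted lines mark the 21.1% gained and 12.1% lost of all regions. HoxA stands at 73.7% gained, and erythroid, B cell and neutrophil maturation genes stand at 62.2%, 60.4% and 39.1% lost.

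The lists for other cell types held at most 49 regions each. Over all genes with a region, 39.6% had a gained and 23.2% a lost one. Dendritic cell genes had a gained region in 4 and a lost one in 7 of 10 cases. Of their 37 regions 13.5% were gained and 29.7% lost, against 21.1% and 12.1% of all regions. The 35 T cell regions were gained in 14.3% and lost in 25.7%. T cell genes had a gained one in 4 and a lost one in 5 of 13, and had gene-end peaks for 4, 3 and 3 of 18 in MA9 and 6, 4 and 5 in Control. Mast cell, basophil and eosinophil genes had a gained region in 4 and a lost one in 2 of 8 cases. Of their 31 regions 32.3% were gained and 12.9% lost, against 21.1% and 12.1% of all regions. The gained genes were Kit, Gata2, Mitf and Mcpt8, a basophil protease gene beside Ctsg with a gained promoter at 66.7, 58.1 and 66.4. The lost ones were Il5ra, at its promoter, and Hdc, which encodes histidine decarboxylase and is also used in neutrophils. Hdc had 3 lost regions, at most at 85.3, 87.9 and 89.3 in Control. Megakaryocyte genes had a gained region in 3 and a lost one in 7 of 8 cases, and 18.2% of their 33 regions were gained and 27.3% lost. NK cell genes had a gained one in 2 and a lost one in none of 5, and 16.7% of their 18 regions were gained. Stroma and endothelium genes had 32.7% of 49 regions gained, against 21.1% of all regions. Yet a gene-end peak was found for 1 of 15 genes in every MA9 library and for 1, 1 and 0 in Control. Their gained region nearest to a gene end was 2.49 kb from that of Pdgfrb. How far such cells contribute to the sorted samples was not tested. Genes of all blood cells, Ptprc (CD45) among them, had gene-end peaks for 11 of 11 in every MA9 library and for 11, 10 and 11 in Control. The 20 genes silent in blood had none in any library. These counts describe blood cells in general and check neither the CD45.2 sort nor the group labels.

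**Figure D5:**
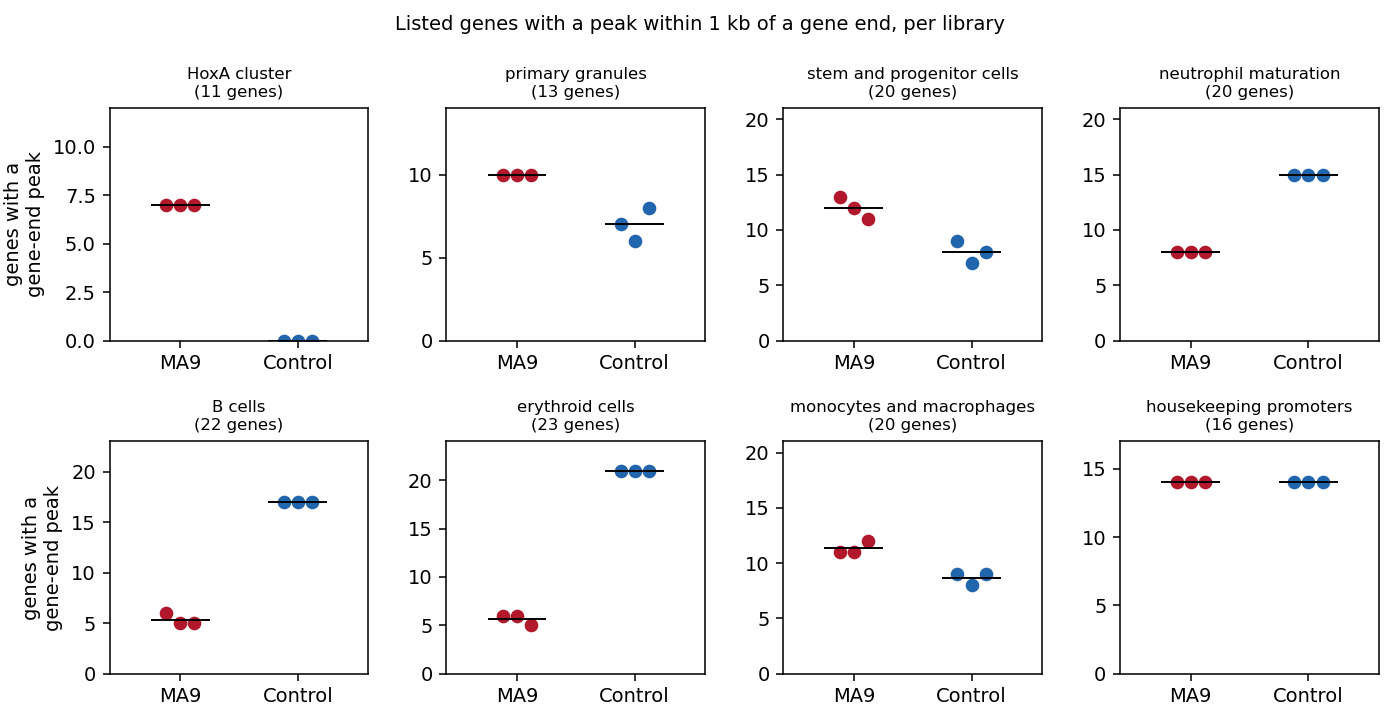
Number of listed genes (vertical axis) with a peak within 1 kb of a gene end in each library, for 8 lists; points are libraries, MA9 left and Control right, and bars are means. MA9 libraries are above Control for HoxA (7 against 0), primary granule, stem cell, and monocyte and macrophage genes. They are below for neutrophil, B cell and erythroid genes, and level at 14 for housekeeping promoters.

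The genes of chromatin machinery had shares of gained and lost regions close to or below the 21.1% and 12.1% of all regions. These were 17.9% and 11.9% for MLL complex genes, 15.8% and 10.5% for Polycomb genes and 14.6% and 7.32% for DNA methylation enzymes. By gene, MLL complex and fusion partner genes had a gained region in 6 of 13 cases and a lost one in 2. Polycomb genes had them in 7 and 4 of 15, and DNA methylation enzymes in 3 and 3 of 10. Over all genes with a region, 39.6% had a gained and 23.2% a lost one, so counts by gene lay on both sides of those shares. The medians were 4, 2 and 3.5 regions per gene in these lists against 2 over all genes. All 11 promoters of the MLL complex list were shared. Tet2, a methylcytosine dioxygenase often mutated in leukaemia, had a gained region 81.1 kb from its end, chr3:133626268-133627545, at 95.8, 95.9 and 96.2 in MA9. Of 20 cell cycle genes, 10 had a gained and 7 a lost region, with a median of 3.5 regions per gene against 2 over all genes. Their regions were near the 21.1% and 12.1% of all regions, with 21.8% gained and 12.6% lost. Cdkn2a, which encodes the inhibitors p16 and p19Arf, had the one gained promoter of that list, at 62.4, 56.9 and 62.4. Cyclin genes differed: Ccnd1 had 4 gained regions of 9 and Ccnd3 had 4 lost ones of 10. Housekeeping promoters were shared in 11 of 11 cases, and 12.2% and 8.16% of the regions of those genes were gained and lost.

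Over all genes, listed or not, the 10 strongest gained gene-end regions included those of Srf, Hoxa9, Igf2bp3, Msl3l2, Hoxa3, Hacd1, Hoxa7, Tnfrsf23 and Hoxa10. Srf, a factor that controls actin genes, stood at 94.8, 95.1 and 95.6 in MA9 at chr17:46557444-46558583. Igf2bp3, an RNA-binding protein of fetal cells, stood at 94.0, 91.4 and 93.2, and all 3 ME libraries held both regions. The strongest lost ones were S100a9, Lyz2, Hba-a1, Retnlg, Cacnb1, Tmem184a, Traf1, Zfp36l1, Cxcr2 and Pou2af1. Lyz2, the lysozyme gene of myeloid cells, stood at 99.4, 99.3 and 99.6 in Control at chr10:117274735-117278775.

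By number of regions, Zfp703 and Gm826 had 12 gained regions each, Pde4d, Wwox and Zfhx3 had 11, and Cdk6, Micall2, Sgip1, Ppargc1a and Reep3 had 10. Losses were most frequent beside Rpia with 16, which lies next to immunoglobulin kappa segments, then Bach2 with 14, Ets1 with 12, and Ebf1, Foxp1 and Sgms1 with 11. Foxp1 and Sgms1 also had 9 and 8 gained regions, among 41 and 36 in all. Lipc, S1pr1 and Prkcb had 10 and Rftn1 had 9. Bach2, Ets1, Ebf1 and Foxp1 encode lymphoid factors, S1pr1 a receptor that lymphocytes use to leave tissue, and Prkcb a kinase of B cell receptor signalling.

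In the short lists the leading gained regions were those at Tsc22d2, Zbtb1, Nr1d2, Enoph1, Klf9, Smyd3, Ddx39b, Cdk6, Gtf2i and Ube2g1. Of these 10, 9 also had a peak in all 3 full Control lists, and Smyd3 in 2 of them. The leading lost ones were at Zfp36, S100a9, S100a8, Coro1a, Ly6e, Ngp, Srgn, Cd74, Txnip and Zfp36l2, and S100a9 was the only one of the 10 without a peak in the full MA9 lists. Zfp36 and Zfp36l2 encode proteins that speed the decay of short-lived messages, Cd74 the invariant chain of antigen presentation, and Txnip a thioredoxin inhibitor.

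The promoters of gained regions were richer in GC than those of lost regions. Over 498 gained promoters the median GC content was 64.7% with 23 CG dinucleotides, over 301 lost ones 53.3% with 8, over shared ones 62% with 23 and over all 20085 promoters 57% with 14. The motif GGGCGGG of SP and KLF factors was found in 51.2% of gained, 52.0% of shared, 26.9% of lost and 34.5% of all promoters. CCAAT was found in 28.1% of gained, 40.8% of shared, 39.2% of lost and 38.1% of all. TGTGGT, the core of RUNX sites, was found in 12.9% of gained, 11.9% of shared, 21.6% of lost and 14.8% of all. Promoters that no region overlapped held GGGCGGG in 20.1%, CCAAT in 37.1% and TGTGGT in 17.0%. Motifs were read on both strands and a match describes letters only. The motifs share base composition with their promoters, so these shares are descriptions.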

How the data were processed

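The submitters' processing notes name Genrich (no version), Bowtie2 2.5.4, deepTools 3.5.1 and Picard 3.2.0, and the build GRCm38 (mm10). Each peak's signal (column 7 of the narrowPeak lists), as deposited by the authors, was never below 200 and was not on a common scale between libraries. It served to rank peaks within a list, as percentiles, and as a minimum in 1 alternative. How the peak caller was set is not given in the sources used here.

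Peaks on chromosomes 1 to 19 were merged and called as described above, in Python 3.11.15 with numpy 2.4.6, pandas 2.3.3 and matplotlib 3.10.9. Each region went to the nearest end of a protein-coding gene in a RefSeq table of GRCm38.p6, and to that gene alone, however far. Gene ends are both ends of the annotated span. Of 363 listed genes 359 were analysed. Promoters on chromosome 18 were not used here. The calling step was tested on simulated lists and recovered the regions planted in them.

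The short lists kept the 3011 peaks of highest signal, the length of the shortest list of the series.

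The comparison, the 23 gene lists, the motifs and the loci were chosen with earlier results of these data known. Named genes are the 10 with most gained or lost regions, the 10 strongest gained or lost gene-end regions, the 10 strongest in the short lists, up to 5 per direction in each list, every Hoxa gene and the loci; other members named were chosen after their values were seen. Group values were tested by a two-sided exact permutation test with Benjamini-Hochberg adjustment over 6 measures. Alternatives varied list length, signal minimum, overlap, summits, libraries needed, gene assignment and each replicate left out. Values of a few listed genes are not reported here.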

Additional observations from a re-analysis of the deposited data

How the results depend on the processing

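The number of gained regions was 9253 with full lists, 6053 with the 25541 strongest peaks per list, 732 in the short lists, and 6167 with signal at least 2 times the minimum. The number of lost regions was 5317 with full lists, 710 in the short lists and 2886 at that signal. The counts from short lists are lower because fewer peaks enter. For the others the cause was not tested. Of the 23 lists, 10 had a gained share above that of all regions, and 6 did with regions assigned to the nearest end of any gene. A lost share above that of all regions was found for 14 lists, and for 9 in the short lists. The difference in gene-end share, MA9 minus Control, was -4.68 percentage points in full lists and 4.84 in the short lists.

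Leaving out each replicate in turn gave 9331 to 10432 gained and 5440 to 6241 lost regions, and 754 to 792 gained and 738 to 803 lost in the short lists. The rule then asks for a peak in, or absence from, fewer lists. Higher counts therefore follow largely from the rule and do not show how stable the calls are. Leaving out each replicate gave 17.7 to 18.7 more Hoxa peaks and 4849 to 6090 more peaks in MA9 than in Control. At signal of at least 2 times the minimum, a lost region was found for 16 of 18 B cell genes, 19 of 21 erythroid genes and 8 of 18 neutrophil maturation genes that had a region. The share over all genes was not computed at that setting. In the short lists, 7 of 8 neutrophil regions and 1 of 5 B cell regions were lost, where 16.2% of all 4396 regions were. Whether replicate numbers pair the libraries cannot be told from these lists. Deviations in same-numbered libraries correlated at 0.0105, 0.0312 and 0.00663 over 16389 shared regions. In differently numbered libraries they correlated at -0.0618 to 0.0476. With 3 libraries per group, such values cannot show whether libraries were prepared together. With the replicate block the differences are the same by construction, for example 5590 peaks and 18 Hoxa peaks, and an exact sign-flip test gave p = 0.25, the smallest 3 pairs allow.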

Other observations

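Antigen receptor segment clusters were looked at after the other values were seen. At the immunoglobulin kappa cluster MA9 libraries had 1, 1 and 1 peak and Control libraries 19, 11 and 24, and at the lambda cluster 2, 2 and 2 in MA9 and 9, 8 and 9 in Control. At the heavy chain cluster the order was the other way, with 38, 32 and 33 peaks in MA9 and 22, 22 and 26 in Control, and 10 of its 44 regions were gained and none lost, where 21.1% of all regions were gained and 12.1% lost. By comparison, 18 of 21 listed B cell genes had a lost region, where 23.2% of all genes did. The T cell receptor alpha and delta cluster had 15, 14 and 14 peaks in MA9 and 24, 19 and 21 in Control, and the beta cluster 5, 5 and 5 in MA9 and 5, 5 and 6 in Control.

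Lost regions also lay in runs. There were 100 runs of 4 or more lost regions with gaps of at most 12.5 kb, the largest with 9 regions near Rbm38, an RNA-binding protein of red cell precursors. Runs of 8 lay at Eps15l1, Cd79b, Bach2 and Ago2, and runs of 7 at the class II genes H2-Aa and H2-Eb1, at the Gimap genes, GTPases of lymphocytes, at Rpia and at Gm31513 and Mideas. Apart from the HoxA run, a gained run of 8 lay near Ppargc1a and gained runs of 7 near Gpnmb and near Vps13c and C2cd4a.

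Among shared regions at equal list length, the largest differences in percentile upward in MA9 lay nearest Fgf1, Ncam1, Kcnip1, Hipk3 and Hoxa9. The Ncam1 region stood at 95.5, 83.2 and 94.8 in MA9 and 1.18, 6.17 and 5.30 in Control. The largest downward lay nearest Hecw2, Gm20767, Ifitm2, Trim11 and Cd69. The Cd69 region, 28.7 kb from that lymphocyte activation gene, stood at 18.7, 17.6 and 17.0 in MA9 and 98.6, 98.8 and 98.9 in Control. Of 14692 shared regions 38.6% ranked higher in MA9 without overlap and 37.8% lower, so such separation was common.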
